A study of Mus musculus with 32 samples.

Results

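The SRSF1 knockdown in whole cells was profiled in 2 libraries, replicates A and B, and was set against the 2 GFP control libraries of the same letters, so that 4 of the 32 libraries of the series are described here. The members were taken by their labels: P19 cells, a mouse embryonal carcinoma line, were transfected for 36 h with esiRNAs (pools of short interfering RNAs made by enzymatic digestion) against Srsf1, or against GFP as the control. All 4 libraries share the line, the transfection reagent and the whole-cell fraction, and poly(A)+ RNA was sequenced. The study's methods call A and B biological replicates without saying what was separate between them, and p-values for gene levels measure the spread between these libraries. The 12 whole-cell libraries of the 6 other knockdowns (SRSF2 to SRSF7) entered the gene model to share the estimate of spread. The results cover a single cell line, a knockdown leaves part of the mRNA in place, and in bulk RNA fewer cells of a type and less RNA per cell cannot be told apart.

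SRSF1 is the founding member of the SR protein family. It binds purine-rich elements in exons through its RNA recognition motifs, and its arginine-serine tail helps to recruit the spliceosome to nearby splice sites. It also shuttles between nucleus and cytoplasm and is known for roles in mRNA export, nonsense-mediated decay and translation. Nonsense-mediated decay degrades mRNAs with a premature stop codon, and several SR and hnRNP genes use exons or introns that carry such a stop to hold their own mRNA down.

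Between 26934601 and 40871724 reads per whole-cell library were recovered from the gene table, with 28864937 and 28727668 in SRSF1 A and B and 27057661 and 31918179 in GFP A and B. The summed level of the 26 pluripotency genes that mark these cells was 107115 and 98137 scaled reads (reads after the authors' scaling of the libraries to each other) after SRSF1 knockdown and 96674 and 95426 in the control, and none of them was at 0. Keratin and contractile genes (24), markers of other cell types, differed by letter: 32194 in SRSF1 A and 33618 in GFP A, but 61079 in SRSF1 B and 65954 in GFP B. Germ layer and neural genes (27) held 13705 and 17507 after knockdown and 14354 and 16991 in the control, with 1 of the 27 at 0 in all 4 libraries. The letter was kept as a block in every model below.

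Srsf1 (ENSMUSG00000018379, chr11:88047373-88053755, mm10) was at 5291 and 6015 against 10137 and 11449.6 scaled reads, knockdown A and B first and control A and B second, an order kept for all values below. The groups did not overlap, and the knockdown libraries held 52.2% in A and 52.5% in B of the control. The fall passed the test (log2 change -0.93, SE 0.13, adjusted p = 0.000422, limma with Benjamini-Hochberg adjustment over all genes). Both knockdown values lay below all 12 libraries of the other knockdowns (7.5% of all genes tested had both outside that range, on either side), which ranged from 10339.7 to 14897 (log2 difference -1.12, adjusted p = 7.87e-06). None of the 19 tested exon bins of Srsf1, where a bin is a stretch of exon between annotated boundaries, passed as changed against the rest of the gene (lowest adjusted p = 0.262). By the authors' FPKM, which corrects for length, Srsf1 was at 333 in the control and 159 after knockdown.

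The other SR genes moved less than Srsf1. Of the 19 tested SR family genes 4 rose and 2 fell, and the falls include Srsf1 itself, the target of the knockdown. Of all 18539 genes tested 10.9% passed (855 higher, 4.61%, and 1172 lower, 6.32%). The median log2 change was 0.12 in the list and -0.0027 over all genes. Srsf6, a splicing activator, was at 14497 and 10462 against 9336 and 7813 scaled reads (log2 change 0.53, SE 0.10, adjusted p = 0.00431). Srsf11 was at 10536 and 9468 against 7684 and 7053 (log2 change 0.44, SE 0.09, adjusted p = 0.00676). Both knockdown libraries lay above both control libraries in each. Srrm2, a large protein of nuclear speckles, was at 52045 and 40128 against 36653 and 27106 (log2 change 0.54, SE 0.12, adjusted p = 0.00996), and Sfswap, a regulator of alternative splicing, at 2535 and 2018 against 1859.8 and 1621 (log2 change 0.38, SE 0.09, adjusted p = 0.0114).

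Tra2a, a splicing activator related to the SR proteins, was at 2802 and 3458 against 3960.4 and 5429 scaled reads and fell (log2 change -0.57, SE 0.12, adjusted p = 0.00623). Its paralog Tra2b was at 4827 and 5061 against 5828 and 6806 and did not pass (log2 change -0.35, SE 0.13, adjusted p = 0.0869). The remaining 12 family members lay between -0.17 and 0.29 and did not pass. Among them were targets of the other knockdowns: Srsf2 (-0.16, adjusted p = 0.532), Srsf3 (0.08, adjusted p = 0.737), Srsf4 (0.29, adjusted p = 0.117), Srsf5 (0.12, adjusted p = 0.537) and Srsf7 (0.25, adjusted p = 0.349). Of the exon bases of Srsf2 25.3% and of Srsf4 43.0% are shared with other annotated genes, and the counting is not stated to use strand. Srsf1 stayed past the threshold whichever of the 4 libraries was left out, whereas Srsf6, Srsf11, Srrm2, Sfswap and Tra2a were all lost without SRSF1 A, and each also without at least 1 other library.

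**Figure D1:**
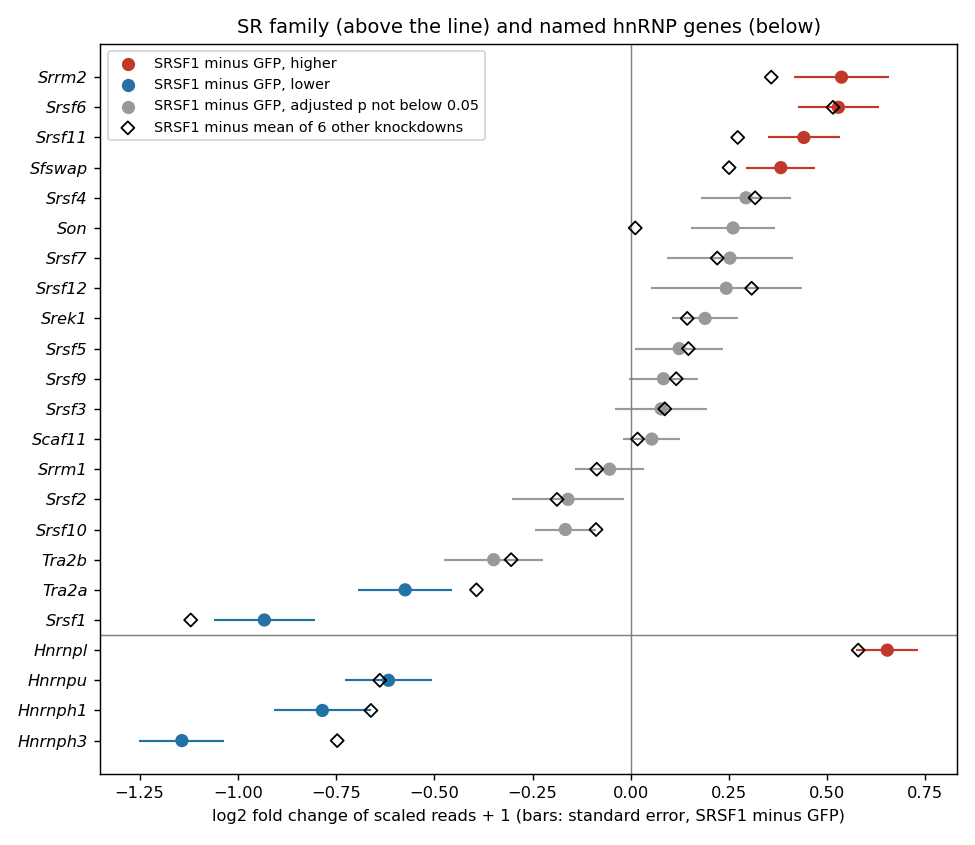
Log2 fold changes (x axis) of the SR family and of 4 hnRNP genes (y axis); filled circles with standard error bars give SRSF1 minus GFP, coloured by whether the gene passed, and open diamonds give SRSF1 minus the mean of the 6 other knockdowns. For Srsf2 to Srsf7 the mean of the other knockdowns includes the libraries in which that gene was the target. Srsf1 and Hnrnph3 lie at -0.93 and -1.14, and Hnrnpl at 0.65.

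The hnRNP genes, whose products often oppose SR proteins at splice sites, changed in both directions: 4 of 25 rose and 5 fell, beside the 10.9% of all genes, with a list median of 0.03. Hnrnph3 was at 1074 and 1450 against 2643 and 2876 scaled reads (log2 change -1.14, SE 0.11, adjusted p = 3.05e-05). Hnrnph1, its paralog and a binder of G-rich elements, was at 8804 and 9677 against 16479 and 15361 (log2 change -0.78, SE 0.12, adjusted p = 0.00101). Hnrnpu, a nuclear matrix protein, was at 14492 and 14405 against 22511 and 21816 (log2 change -0.62, SE 0.11, adjusted p = 0.00237). In these 3 both knockdown libraries lay below both control libraries and below all 12 libraries of the other knockdowns.

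Hnrnpl, a binder of CA repeats, went the other way, at 17503 and 15658 against 11542 and 9611 scaled reads (log2 change 0.65, SE 0.08, adjusted p = 0.000156), above all 12 other knockdown libraries (8721 to 14168). The counts depended on the libraries: without SRSF1 A 1 hnRNP gene was higher and 2 were lower, and without SRSF1 B or without GFP A 1 was higher and 5 were lower. Hnrnph3, Hnrnph1 and Hnrnpl passed in each fit that left out 1 library, and Hnrnpu was lost without SRSF1 A. Without the replicate block Hnrnph3 alone of the 4 passed (adjusted p = 0.0137).

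Across the transcriptome most changes were small. The 2027 genes that passed had a median size of 0.53 on the log2 scale, and a fold of at least 2 was reached by 93 of the higher and 228 of the lower genes. Protein-coding genes made up 92.2% of them and 81.6% of all genes tested. The change was larger in letter A than in letter B for 70.9% of these genes (median size 0.60 in A, 0.48 in B). Without SRSF1 A the count was 313, without SRSF1 B 1106, without GFP A 801 and without GFP B 1597, and without the replicate block it was 149 (46 higher, 103 lower).

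Of the genes that passed, 1441 had a mean of at least 200 scaled reads over the 4 libraries and no overlap between groups (688 higher, 753 lower). Groups of 2 and 2 did not overlap in 47.8% of all genes tested. The 12 largest falls and 12 largest rises among the 1441 are named below. Of these 24, 22 passed in every fit that left out 1 library, and 11 passed without the replicate block. Of all 92 named genes past the threshold, those of the lists below included, 33 passed in every fit that left out 1 library and 16 without the block. Bbs10 was lost without SRSF1 A, and Hspa5 without SRSF1 B, GFP A or GFP B.

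Rnf157, an E3 ubiquitin ligase (chr11:116336353-116413032), was at 144 and 284 against 681 and 852 scaled reads (log2 change -1.91, SE 0.17, adjusted p = 1.84e-05), and the knockdown level was 21.1% in A and 33.3% in B of the control. The noncoding RNA 4930461G14Rik was at 51.6 and 129 against 219.6 and 409 (log2 change -1.86, SE 0.28, adjusted p = 0.000709). Nupr1, a stress-induced nuclear protein, was at 50.5 and 170 against 201 and 403 (log2 change -1.61, SE 0.26, adjusted p = 0.00134). In all 3 the knockdown libraries lay below the control libraries, and SRSF1 A lay below SRSF1 B.

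Col4a5, a collagen IV chain, was at 293 and 425 against 1019.5 and 814 scaled reads (log2 change -1.37, SE 0.16, adjusted p = 9.02e-05). Reln, the secreted protein reelin, was at 131 and 293 against 474 and 458 (log2 change -1.25, SE 0.20, adjusted p = 0.00128). Ovgp1, a secreted glycoprotein of the oviduct, was at 156 and 316 against 620.4 and 841 (log2 change -1.69, SE 0.25, adjusted p = 0.000653), and its bins are joined with those of its neighbour Wdr77 in the exon-bin table. SRSF1 A was the lowest of the 4 libraries in each. Cyp2b23, a cytochrome P450 (-1.32, adjusted p = 0.00147), Mipol1 (-1.33, adjusted p = 0.000575) and Gm11627 (-1.59, adjusted p = 7.48e-05) fell too, and Riok3, Gmfg and Ephx1 completed the 12 (-1.51, -1.38 and -1.66).

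Among the rises Zfhx3, a homeobox transcription factor, was at 2538 and 1429 against 841 and 715 scaled reads (log2 change 1.30, SE 0.17, adjusted p = 0.000313). C1qtnf1, a secreted C1q-domain protein, was at 428 and 401 against 226 and 133 (log2 change 1.25, SE 0.19, adjusted p = 0.000847). D930015E06Rik was at 3979 and 3118 against 1660.3 and 1365 (log2 change 1.23, SE 0.10, adjusted p = 6.8e-06). SRSF1 A was the highest of the 4 libraries in each of these. Efcab7 was at 483 and 407 against 221 and 206 (log2 change 1.05, SE 0.16, adjusted p = 0.00092), and Bbs10, a chaperonin-like protein of cilia, at 408 and 296 against 169 and 184 (log2 change 0.98, SE 0.17, adjusted p = 0.0017). Ccnb1ip1, an E3 ligase of meiosis, was at 1462 and 1100.4 against 598 and 693 (log2 change 0.98, SE 0.14, adjusted p = 0.000675).

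Hspa5, the chaperone BiP of the endoplasmic reticulum, was at 15728 and 14698 against 9535 and 6302 scaled reads (log2 change 0.97, SE 0.26, adjusted p = 0.0254). The 12 other knockdown libraries ranged from 5995 to 25743 for Hspa5, and SRSF1 did not pass against them (0.34, adjusted p = 0.283). Trp73os (1.52), Fam69a (1.38), Tbc1d8 (1.10), AF529169 (1.14) and the pseudogene Gm12751 (1.01) completed the rises. Of the exon bases of Fam69a 33% are shared with the entry of Rpl5 and Snord21, of C1qtnf1 20.5% with Gm11747, of Trp73os 12.8% with Trp73 and of Tbc1d8 9.24% with Rpl31, so reads there cannot be told apart. Reads of the pseudogene may be split with near-identical copies.

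**Figure D2:**
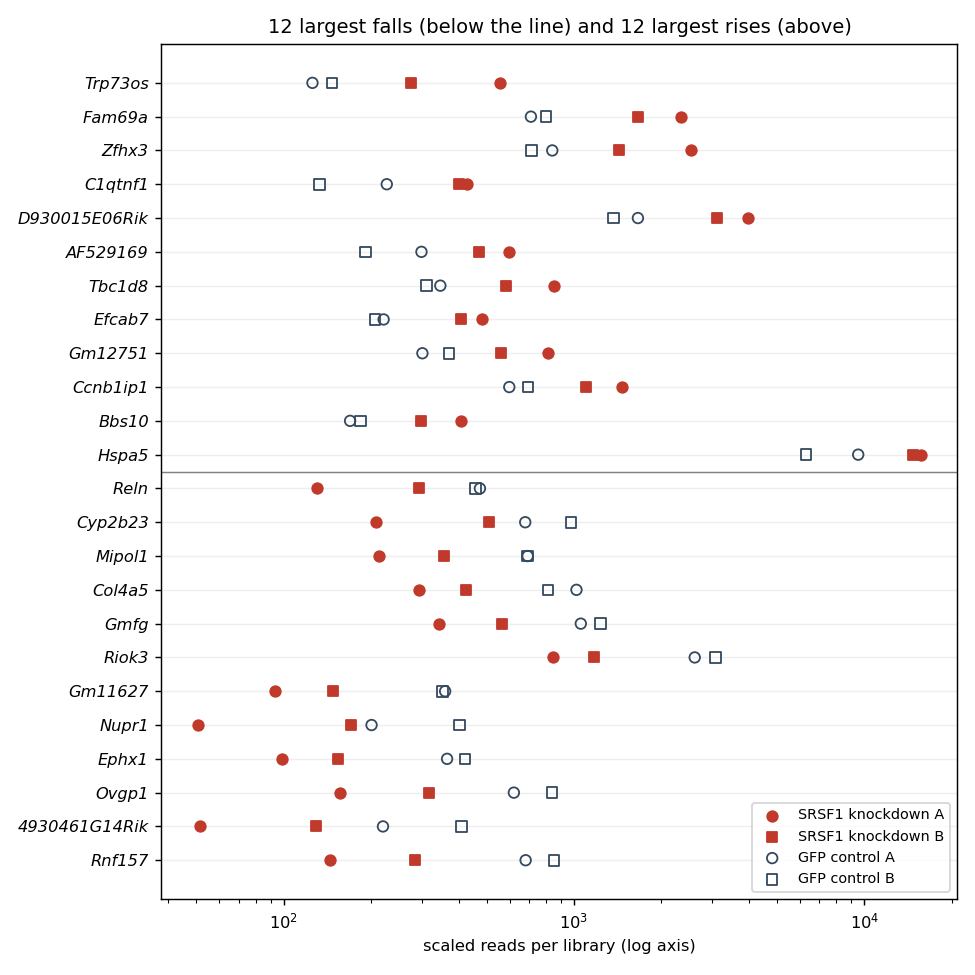
Scaled reads per library (x axis, log scale) of the 12 largest falls and 12 largest rises (y axis); filled red symbols are SRSF1 knockdown libraries, open dark symbols GFP control libraries, circles letter A and squares letter B. In all 24 genes the red and dark symbols are separate, which the choice of genes required, and in Rnf157 they lie at 144 and 284 against 681 and 852.

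Gene groups with roles near SRSF1 were followed as lists, and each count is to be read beside the 10.9% of all genes that passed and beside its own count with 1 library left out. Without the replicate block at most 1 gene of any list passed. Of 10 kinases and import factors that act on SR proteins 2 rose, the kinase Prpf4b (6123 and 5204 against 5120 and 4121 scaled reads, log2 change 0.30, SE 0.08, adjusted p = 0.0213) and the import receptor Tnpo3 (9378 and 8357 against 7865 and 7186, log2 change 0.24, SE 0.07, adjusted p = 0.0442). Both were lost whichever of the 4 libraries was left out. Core spliceosome genes (48 tested) gave 5 rises and 2 falls (14.6%). Dhx38, a splicing helicase, was at 3375 and 2615 against 2415 and 1811 (log2 change 0.51, SE 0.08, adjusted p = 0.00133), and Snrpa1 of the U2 snRNP at 2704 and 2890.4 against 3934 and 4446 (log2 change -0.58, SE 0.10, adjusted p = 0.00169). Rbm25 (0.51, adjusted p = 0.00382) and Luc7l3 (0.42, adjusted p = 0.00562) rose as well. Without SRSF1 A 2 core genes were higher and none lower, without SRSF1 B or without GFP A 2 were higher and 2 lower, and Dhx38 passed in each of these fits. Among 32 tissue-specific splicing regulators Raver1 (0.46, adjusted p = 0.00876) and Ptbp2 (0.38, adjusted p = 0.0172) rose and 3 fell, with the neuronal factors Nova1 (211 and 241 against 378 and 334, -0.65, adjusted p = 0.0194) and Nova2 (-0.50, adjusted p = 0.0323) among them. Without SRSF1 A or without GFP A 1 of the 32 was higher and none lower, and both Nova genes were lost.

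The exon junction complex list (13 tested) held 2 rises and 1 fall (23.1%). Rnps1, which links splicing to decay, was at 9189 and 6885 against 5680.1 and 4886 scaled reads (log2 change 0.59, SE 0.10, adjusted p = 0.0022), and Cwc22 rose (0.33, adjusted p = 0.0128) while Upf3a fell (-0.34, adjusted p = 0.0426). Against the 6 other knockdowns Upf3a did not pass (-0.05, adjusted p = 0.755), and Rnps1 and Cwc22 did. Rnps1 passed in each fit that left out 1 library, Cwc22 in that without GFP B alone, and Upf3a in none. None of 11 nonsense-mediated decay factors passed in limma, edgeR or DESeq2, and 2 passed as lower when limma was run on the 4 libraries alone. The defining members were Upf1 (-0.03, adjusted p = 0.851), Upf2 (-0.25, adjusted p = 0.132), Smg1 (0.13, adjusted p = 0.577) and Smg5 (-0.14, adjusted p = 0.378). Of 16 host and stress RNAs that decay normally holds down, Snhg3 (0.68, adjusted p = 0.0155) and Gas5 (0.39, adjusted p = 0.048) were higher and Snhg5 was lower (1276 and 1169 against 1858 and 1938, -0.63, adjusted p = 0.00233), with a list median of -0.26. Against the 6 other knockdowns Snhg3 (0.02, adjusted p = 0.938) and Gas5 (0.26, adjusted p = 0.0737) did not pass, and Snhg5 did (-0.41, adjusted p = 0.00501). Without SRSF1 A none of the 16 passed, and Snhg3 and Gas5 passed in the fit without GFP B alone.

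Of 25 mRNA export factors 4 rose and 2 fell (24%). Ncbp2, a subunit of the nuclear cap-binding complex, was at 2863 and 2032 against 1441 and 1392 scaled reads (log2 change 0.77, SE 0.12, adjusted p = 0.000804). Eny2, a subunit of the TREX-2 export complex, was at 564 and 521 against 844 and 825 (log2 change -0.62, SE 0.14, adjusted p = 0.00972), below all 12 other knockdown libraries. Rbm15 (0.52, adjusted p = 0.0129) and Thoc2 (0.34, adjusted p = 0.0316) rose. Without SRSF1 A Ncbp2 alone of the 25 passed, and without SRSF1 B or without GFP A 2 were higher and 1 was lower. Of 20 cleavage and polyadenylation factors Rbbp6 (0.33, adjusted p = 0.0392), Papolg (0.31, adjusted p = 0.0344) and Cstf1 (0.30, adjusted p = 0.0452) rose and Cpsf4 fell (-0.29, adjusted p = 0.0442), but none of the 20 passed without SRSF1 A or without GFP A, and 1 was higher without SRSF1 B or without GFP B. In the list of RNA exosome and decay genes (27 tested) the exonuclease Xrn2 rose (7625 and 7186 against 5589 and 5687, 0.39, adjusted p = 0.0069) and 5 fell, among them Riok3, Dcp1b (-0.54, adjusted p = 0.0286) and Exosc9 (-0.41, adjusted p = 0.036). That list gave 1 fall without SRSF1 A, 1 rise and 1 fall without SRSF1 B, 2 and 2 without GFP A, and 1 and 3 without GFP B.

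Of 25 genes known as splicing targets of SRSF1, Usp8 rose (3809 and 3686 against 2746 and 2636 scaled reads, log2 change 0.48, SE 0.09, adjusted p = 0.00454) and Hipk3 fell (613 and 751 against 909.7 and 906, log2 change -0.42, SE 0.10, adjusted p = 0.0131), which is 8% of the list beside 10.9% of all genes. Neither passed without SRSF1 A, and Hipk3 was lost without GFP A too. In the translation and mTOR list 3 of 24 rose and none fell (12.5%). Eif4b, a cofactor of translation initiation, was at 33535 and 31164 against 20922 and 20207 (log2 change 0.65, SE 0.09, adjusted p = 0.000561), above the range of the other knockdowns (19082 to 26190.4), and passed in each fit that left out 1 library. The kinases Eif2ak3 (0.39, adjusted p = 0.0193) and Eif2ak4 (0.42, adjusted p = 0.0223) were the other rises, and both were lost without SRSF1 A, Eif2ak3 without SRSF1 B or GFP A too, and Eif2ak4 without GFP B too.

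Cell cycle genes (40 tested) gave 6 rises and 5 falls (27.5%). Bub1b, a kinase of the spindle checkpoint, was at 5960.5 and 4852 against 4349 and 3693 scaled reads (log2 change 0.42, SE 0.09, adjusted p = 0.00623), and Bub1 rose too (0.33, adjusted p = 0.0159). Cdc25c, a phosphatase of mitotic entry, was at 475 and 588 against 763 and 897 (log2 change -0.64, SE 0.11, adjusted p = 0.00232), and E2f1 fell (-0.44, adjusted p = 0.0195). Without SRSF1 A no gene of this list passed, without GFP A 1 was higher and 1 lower, and without SRSF1 B 1 was higher and 4 lower. DNA repair genes (32 tested) gave 5 rises and 2 falls: Rad18 (3021 and 2939.8 against 2019 and 1989, log2 change 0.57, SE 0.12, adjusted p = 0.00524), Bard1 (0.44, adjusted p = 0.0116) and Topbp1 (0.35, adjusted p = 0.0133) lay above the 12 other knockdown libraries, and the helicase Wrn fell (-0.45, adjusted p = 0.026). No DNA repair gene passed without SRSF1 A, and 4 rises and no fall were left without GFP A, 3 and none without SRSF1 B, and 2 and 1 without GFP B.

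In the p53 list 2 of 28 rose and 2 fell. The death receptor Fas was at only 3.29 and 8.61 against 17.9 and 19.9 scaled reads (log2 change -1.63, SE 0.41, adjusted p = 0.0187), Ddb2 fell (-0.36, adjusted p = 0.0395), and Polh (0.92, adjusted p = 0.000533) and Sesn1 (0.38, adjusted p = 0.0304) rose. Against the 6 other knockdowns Polh and Sesn1 passed, and Fas (-0.81, adjusted p = 0.0971) and Ddb2 (-0.04, adjusted p = 0.799) did not. Polh passed in each fit that left out 1 library, while Fas and Sesn1 passed in that without SRSF1 B alone and Ddb2 in that without GFP B alone. Apoptosis genes (28 tested) gave 2 falls (7.14%, beside 10.9% of all genes): Bcl2l2 (308 and 381 against 636 and 749, log2 change -1.01, SE 0.11, adjusted p = 7.48e-05) and Bcl2 (236 and 357 against 449 and 454, log2 change -0.64, SE 0.18, adjusted p = 0.0295). In both the knockdown libraries lay below the controls. Bcl2 was lost without SRSF1 A, SRSF1 B or GFP A, and Bcl2l2 in no fit that left out 1 library. Genes of microRNA processing (16 tested) gave 2 falls (12.5%), Ago4 (51.6 and 101 against 119 and 186, -1.03, adjusted p = 0.00663) and the exporter Xpo5 (-0.34, adjusted p = 0.0173), and none passed without SRSF1 A, while 3 were higher and none lower without GFP A.

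Of 26 pluripotency genes 3 rose and 4 fell (26.9%). Utf1 was at 3990.1 and 3356 against 2376 and 2317 scaled reads (log2 change 0.64, SE 0.15, adjusted p = 0.0104) and Esrrb at 34 and 50.6 against 86.3 and 79.5 (log2 change -0.98, SE 0.23, adjusted p = 0.0132). Dnmt3l was at 133 and 278 against 276 and 546 (log2 change -1.01, SE 0.16, adjusted p = 0.00101) and Klf2 at 17.6 and 46.3 against 38.1 and 106 (log2 change -1.13, SE 0.23, adjusted p = 0.00623). For Dnmt3l and Klf2 the groups overlapped across letters, and the knockdown was below the control within each letter. Without SRSF1 A Dnmt3l alone of the list passed, without SRSF1 B 3 were lower and none higher, and without GFP A or without GFP B 1 was higher and 2 lower. The list of genes that respond to double-stranded RNA gave 2 rises and 3 falls among 18, with a median of -0.21. Isg15 was at 15.4 and 94.7 against 25.8 and 201 (log2 change -0.89, SE 0.26, adjusted p = 0.0347) and Oasl2 at 49.4 and 188 against 75.1 and 387 (log2 change -0.82, SE 0.24, adjusted p = 0.0415), with B far above A in both groups. Bst2 fell (-0.42, adjusted p = 0.0332) and Stat2 rose (0.36, adjusted p = 0.0455). None of the 18 passed without SRSF1 A or without GFP B, and 1 was lower without SRSF1 B or without GFP A. Of the markers of other cell types, Neurog2 (9.87 and 24.7 against 38.1 and 43.6, -1.32, adjusted p = 0.0398) and Lgals1 (-0.35, adjusted p = 0.0339) passed, and of the fits that left out 1 library they did so in that without SRSF1 B alone.

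**Figure D3:**
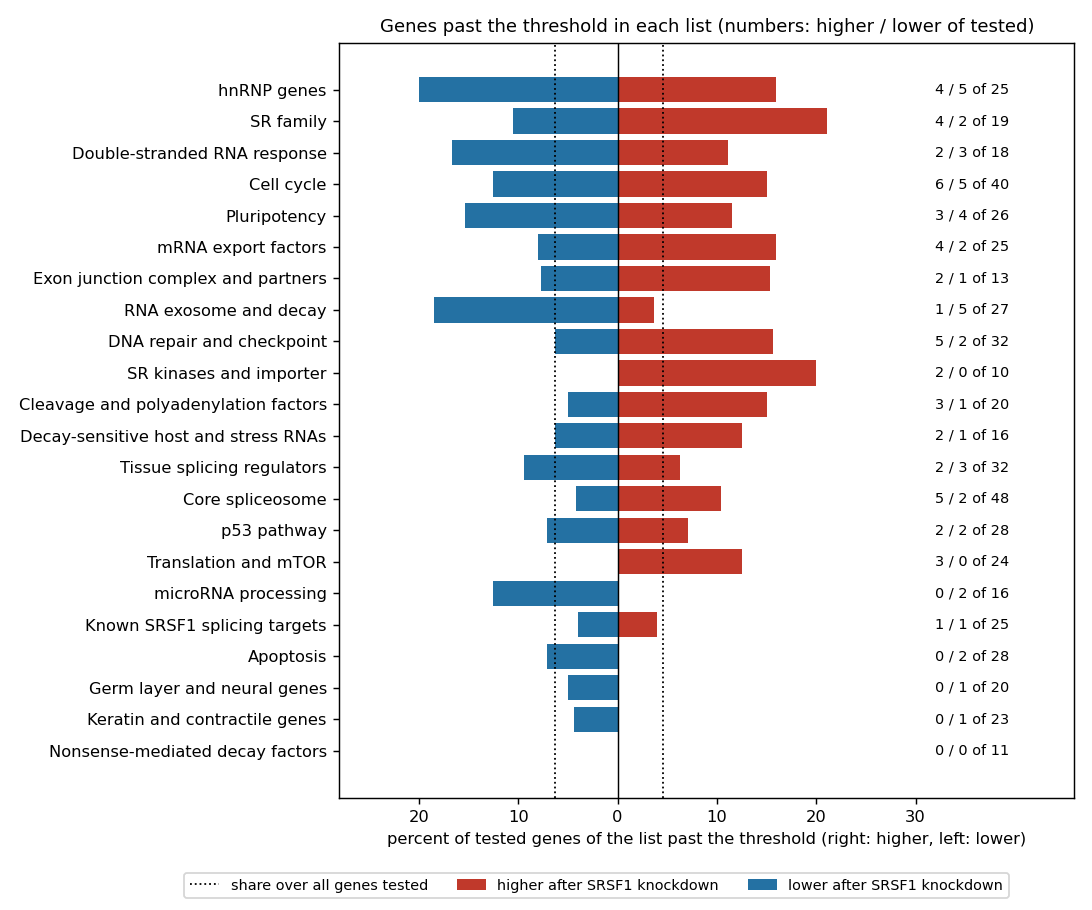
Percent of the tested genes of each list that passed (x axis; right: higher, left: lower after SRSF1 knockdown), with counts at the right edge and dotted lines at the share over all genes tested (4.61% higher, 6.32% lower). In the hnRNP list 4 were higher and 5 lower of 25, and no nonsense-mediated decay factor passed.

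Exon usage was tested bin by bin, as the level of a bin against the other bins of its gene, so that a change of the whole gene cancels. The test pools the spread of all bins of a gene, though these come from the same 4 libraries. Bins of the same libraries thus count as replicates in it, so p-values for bins do not measure the spread between libraries alone. Of 177955 bins 979 passed at an adjusted p below 0.1 (0.55%), 665 higher (0.374%) and 314 lower (0.176%), in 696 gene entries. A single bin passed in 536 of these, and 12 had 5 or more. Of 608 entries that are single genes tested for their level 132 also passed the gene test (21.7%, beside 10.9% of all genes tested). Without SRSF1 A 303 bins passed (233 higher, 70 lower), and without GFP B 604, in fits over all whole-cell libraries. In joined entries, where overlapping genes share a set of bins, a bin can pass because 1 of the genes changed, and 15.4% of the bins that passed lie in such entries (6.67% of those tested).

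Separate internal exons, which touch no other bin and lie between the ends of the gene entry, passed in 0.244% of 85107 cases, 103 higher and 105 lower. Place was set over the whole entry and not per transcript, so end exons of shorter transcripts can be among them. Bins called first exons here are all those in the first block of a gene entry, a block being a run of touching bins. They passed in 0.322% (16 higher, 18 lower). Last exons, the bins of the last block, passed in 0.937% (132 higher, 83 lower). Both blocks can include annotated introns. Bins in an intron between annotated exons passed in 3.78% of 1800 cases, 54 higher and 14 lower. By the transcripts that hold a bin, 231 of the bins found only in retained-intron transcripts rose and 29 fell (4.68% of 5561), and of those found only in nonsense-mediated decay transcripts 24 rose and 4 fell (5.10% of 549). Bins in at least 1 protein-coding transcript passed in 0.314% (276 higher, 244 lower).

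**Figure D4:**
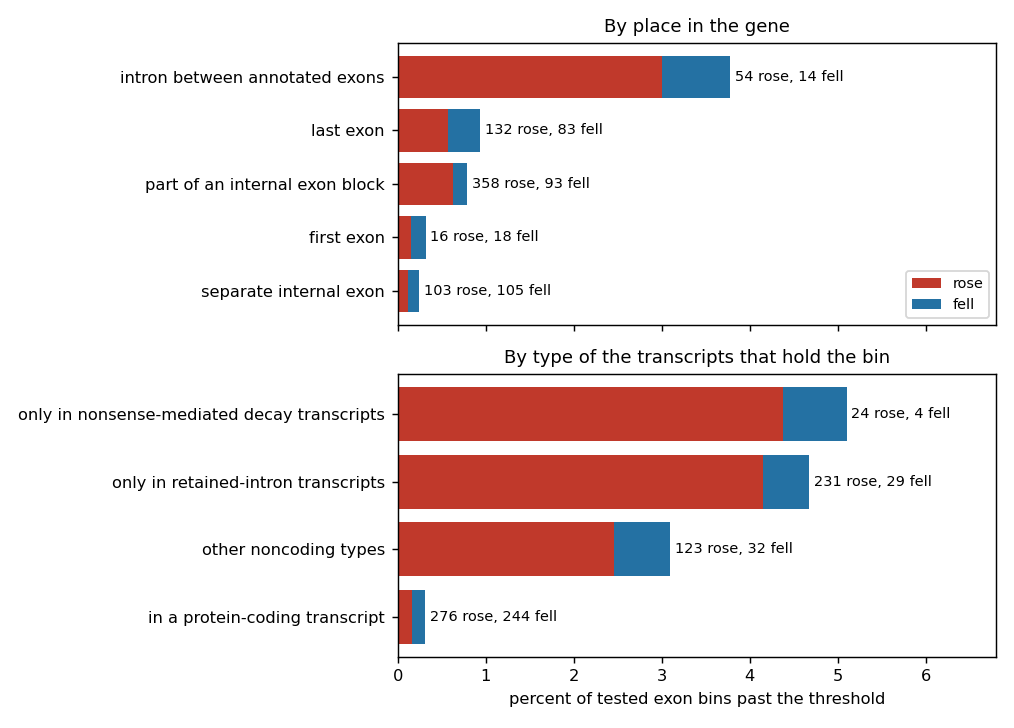
Percent of tested exon bins that passed (x axis), split into bins that rose (red) and fell (blue), by place in the gene (top) and by annotated transcript type (bottom). Separate internal exons rose and fell in like numbers (103 and 105), whereas bins found only in retained-intron transcripts mostly rose (231 and 29).

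The separate internal exons that fell had a median length of 133 bases, 57.1% had a length divisible by 3 (39.4% of all 85107 tested), and 59.0% are skipped in an annotated transcript (8.01% of all). The exons that rose had a median length of 172 bases, 44.7% with a length divisible by 3 and 76.7% skipped in an annotated transcript. Coding sequences are shown for named internal exons of at most 300 bases for which a GENCODE M1 coding transcript with the same exon lengths was found, though not for all of them, 5′ to 3′ on the sense strand, because SRSF1 is known to act through purine-rich words inside exons: capitals mark GGAGA and GAAGAA, which can share bases. The sequences are those of GENCODE M1 transcripts, and the coordinates are those of the bins (mm10).
Rif1, bin 45, chr2:52116668-52116745, plus strand, fell: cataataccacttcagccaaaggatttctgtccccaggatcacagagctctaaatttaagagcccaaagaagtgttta
Pkp4, bin 48, chr2:59350494-59350622, plus strand, fell: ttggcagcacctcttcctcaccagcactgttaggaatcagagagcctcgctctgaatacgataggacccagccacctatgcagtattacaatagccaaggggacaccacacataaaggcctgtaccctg
Cthrc1, bin 3, chr15:39080483-39080704, plus strand, fell: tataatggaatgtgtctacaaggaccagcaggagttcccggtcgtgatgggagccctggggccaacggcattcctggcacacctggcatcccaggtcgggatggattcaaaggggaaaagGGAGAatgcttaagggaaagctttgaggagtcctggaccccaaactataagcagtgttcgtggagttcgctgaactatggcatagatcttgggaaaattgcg
Cttn, bin 16, chr7:144450978-144451088, minus strand, fell: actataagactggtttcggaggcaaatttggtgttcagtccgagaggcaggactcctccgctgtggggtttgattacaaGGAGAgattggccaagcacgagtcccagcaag
Ktn1, bin 38, chr14:47726471-47726554, plus strand, rose: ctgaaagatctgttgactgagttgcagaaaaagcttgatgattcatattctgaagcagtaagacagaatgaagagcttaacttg
Bptf, bin 22, chr11:107062050-107062211, minus strand, rose: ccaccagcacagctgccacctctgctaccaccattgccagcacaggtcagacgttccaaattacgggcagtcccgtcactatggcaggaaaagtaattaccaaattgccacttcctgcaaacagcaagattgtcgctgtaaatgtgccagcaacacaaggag

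Of these exons Cthrc1 and Cttn, which fell, hold 1 GGAGA each, and the others hold neither word. Over all separate internal exons with a coding sequence (75179), GGAGA was found on the sense strand in 28.1% and GAAGAA in 15.2%. Among the 64 such exons that fell the shares were 29.7% and 12.5%, and among the 43 that rose 18.6% and 11.6%. These shares depend on exon length. Per 1000 bases GGAGA stood at 2.60 in all, 2.83 in exons that fell and 3.45 in those that rose. Among exons of 60 to 200 bases it was found in 26.4% of all, 26.5% of those that fell and 13.9% of those that rose. The values describe these letters in these exons, without a test.

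Rif1, a factor of replication timing and double-strand break repair, had bins in both directions. Its bin 45, the 78-base exon shown above, made up 0.499% and 0.651% against 1.97% and 1.93% of the exon reads of the gene (log2 change -1.83, SE 0.15, adjusted p = 8.18e-14, diffSplice). In the 12 other knockdown libraries its share was 1.98% to 2.65%, so both knockdown values lay below all others. The shares of the 2 groups did not overlap in 34.1% of all bins tested. Bin 24 of the same gene, 999 bases of an annotated intron (chr2:52093590-52094588), was at 1.09% and 1.37% against 0.18% and 0.279% (log2 change 2.39, SE 0.20, adjusted p = 2.41e-13), above the other knockdowns (0.105% to 0.416%).

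In Thada 8 bins fell and none rose. Bin 7, a 374-base internal exon (chr17:84230791-84231164), was at 0.641% and 1.38% against 3.71% and 3.85% (log2 change -2.06, SE 0.26, adjusted p = 4.37e-07). Bin 1, the 2276-base last exon (chr17:84190056-84192331), was at 3.01% and 5.07% against 14.7% and 16% (log2 change -2.12, SE 0.19, adjusted p = 5.56e-11). Prdm2, a histone methyltransferase, had a lower last exon and a lower internal exon. The last exon, bin 1, was at 0.837% and 0.971% against 2.2% and 2.87% (log2 change -1.47, SE 0.13, adjusted p = 3.24e-08), and the internal exon, bin 2, at 0.147% and 0.163% against 0.433% and 0.65% (log2 change -1.66, SE 0.22, adjusted p = 5.08e-05), but bin 2 was lost without SRSF1 A or without GFP B, and did not pass without the replicate block (adjusted p = 0.635).

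Among genes of adhesion and the cytoskeleton, the 129-base exon of Pkp4 (plakophilin 4, a junction protein) was at 1.48% and 2.09% against 3.17% and 3.33% (log2 change -0.90, SE 0.12, adjusted p = 2.9e-06). A 705-base exon of Pvrl2 (nectin 2, chr7:19724165-19724869) was at 6.45% and 9.2% against 15.1% and 16% (log2 change -1.17, SE 0.13, adjusted p = 6.04e-06). The 111-base exon of Cttn (cortactin, an actin regulator) was at 2.1% and 2.3% against 4.03% and 3.57% (log2 change -0.83, SE 0.13, adjusted p = 9.99e-05). In these 3 both knockdown shares also lay below the other knockdowns (2.19% to 3.92%, 9.83% to 18.9% and 2.38% to 4.12%). The 222-base exon of Cthrc1, a secreted collagen-repeat protein, was at 5.84% and 7.29% against 18.8% and 16.9% (log2 change -1.63, SE 0.19, adjusted p = 2.2e-05), against 14.1% to 18.6% in the other knockdowns.

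Picalm, a clathrin assembly protein, had a 150-base exon (chr7:90182219-90182368) at 2.18% and 2.51% against 5.32% and 4.49% (log2 change -1.12, SE 0.11, adjusted p = 3.24e-08). The 84-base exon of Csnk1a1, casein kinase 1 alpha, was at 0.242% and 0.314% against 0.823% and 0.79% (log2 change -1.59, SE 0.22, adjusted p = 7.36e-06). Of the internal exons named here that fell, all but that of Thada have a length divisible by 3.

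Of the exons that rose, the 84-base exon of Ktn1 (kinectin, a protein of the endoplasmic reticulum) was at 2.15% and 1.9% against 0.963% and 0.852% (log2 change 1.17, SE 0.15, adjusted p = 3.65e-07), and it did not pass without the replicate block (adjusted p = 0.161). The 162-base exon of Bptf, a subunit of the NURF remodeller, was at 0.603% and 0.472% against 0.156% and 0.17% (log2 change 1.74, SE 0.25, adjusted p = 7.08e-06). In both the knockdown shares lay above all other libraries. The 63-base exon of Clasp2, a microtubule plus-end protein, was at 1.1% and 0.728% against 0.202% and 0.206% (log2 change 1.98, SE 0.30, adjusted p = 5.53e-05), on 6.14 and 6.5 scaled reads in the control, and was lost without SRSF1 A or without GFP A. The lengths of these 3 exons are divisible by 3.

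Some rises lay in long exons of noncoding transcripts: Mbtd1, a chromatin reader (2558 bases, 3.08% and 3.21% against 1.37% and 1.3%, 1.16, adjusted p = 2.53e-06), 2610005L07Rik (2621 bases, 15.7% and 13.9% against 5.04% and 6.47%, 1.41, adjusted p = 4.44e-07) and 6820431F20Rik (2875 bases, 3.41% and 2.99% against 1.81% and 1.24%, 1.09, adjusted p = 3.73e-05). Mbtd1 lay above the other knockdowns (1.29% to 1.85%). In 2610005L07Rik (2.47% to 20.8%) and 6820431F20Rik (1.06% to 3.59%) both SRSF1 shares lay within their range, though both bins passed against their mean (1.24 and 0.77). In the entry of Zeb2, a zinc finger transcription factor joined with Mir5129, a 1615-base exon was at 2.3% and 1.56% against 0.375% and 0.417% (log2 change 2.22, SE 0.27, adjusted p = 1.1e-06). SRSF1 B lay within the other knockdowns there (0.17% to 1.65%). Bin 7 of Snf8, an ESCRT-II subunit, is 177 bases long and found only in a noncoding transcript. It was at 80% and 75.6% against 53.5% and 64.1% (log2 change 1.25, SE 0.15, adjusted p = 1.33e-05). That is a large share of the gene for 1 short bin, and the source of its reads was not tested. Bin 7 of the joined entry Mipol1 and Prps1l3 rose (1.71, adjusted p = 3.65e-07) beside the fall of Mipol1 as a gene. There SRSF1 B, at 71.9%, lay within the other knockdowns (49.2% to 72.4%).

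**Figure D5:**
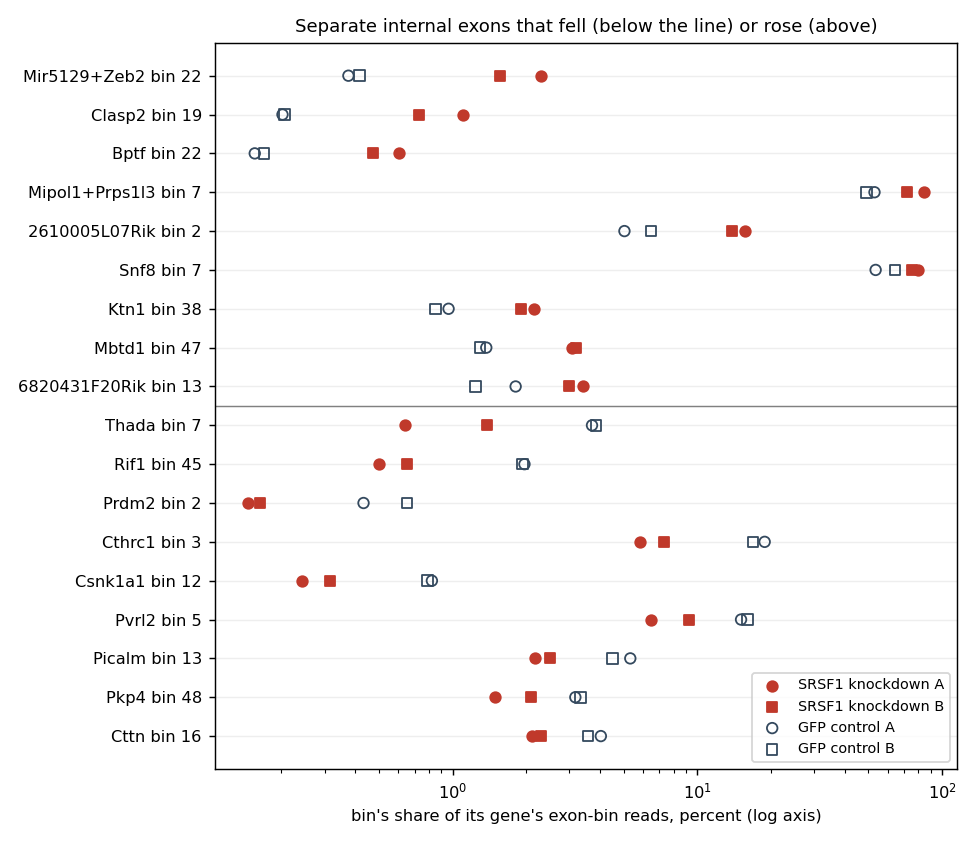
Share of each exon in the exon reads of its gene (x axis, percent, log scale) for 9 separate internal exons that fell and 9 that rose (y axis, gene and bin number); filled red symbols are SRSF1 knockdown libraries, open dark symbols GFP control libraries, circles A, squares B. In all 18 the knockdown shares are separate from the control shares, which the choice of exons required, for example 0.499% and 0.651% against 1.97% and 1.93% in Rif1 bin 45.

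The 231 bins that rose and are found only in retained-intron transcripts lie in 188 genes, with a median share of 2.36% and 2.01% of their gene after knockdown and 0.929% and 0.873% in the control. Slc30a9, a zinc transporter family member, had 2300 bases of intron (chr5:67342230-67344529) at 20.4% and 20% against 7.86% and 8.12% (log2 change 1.55, SE 0.11, adjusted p = 7e-12). Exosc8, a core subunit of the RNA exosome, had a 683-base bin (chr3:54731298-54731980) at 5.28% and 4.41% against 1.55% and 1.12% (log2 change 1.88, SE 0.15, adjusted p = 3.46e-11). Both lay above all 12 other knockdown libraries (6.11% to 9.39% and 1.46% to 2.92%).

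Over all 5561 tested bins of this type, the bins held 0.664% and 0.687% of the exon-bin reads after SRSF1 knockdown, 0.615% and 0.599% in the control and 0.542% to 0.701% in the 12 other knockdown libraries. The SRSF1 libraries lay above the control libraries and within the range of the others, and with 2 libraries a group an exact permutation test could not go below p = 0.333 (two-sided). In the cytoplasm the same bins held 0.195% and 0.188% after knockdown and 0.155% and 0.163% in the control. Of the 231 bins that rose in whole cells, 92 had both cytoplasmic knockdown shares above both control shares, as had 16.4% of all 5561 bins of this type and 24.1% of all bins tested.

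In first blocks, bin 11 of Srsf5, skipped in an annotated transcript, was at 1.03% and 1.4% against 2.12% and 2.64% (log2 change -1.06, SE 0.15, adjusted p = 3.04e-05). A bin of Mapkapk2, a stress kinase, was at 0.128% and 0.212% against 0.31% and 0.502% (-1.24, adjusted p = 0.00654). A bin of Acin1 was at 0.891% and 1.36% against 1.77% and 1.55% (-0.61, adjusted p = 0.0087). In each of these bins SRSF1 B lay within the other knockdowns (1.17% to 3.32%, 0.179% to 0.535% and 1.23% to 2.17%). The bin of Mapkapk2 did not pass without the replicate block (adjusted p = 0.160), and that of Acin1 was lost without SRSF1 A or GFP A. Bins of first blocks that rose were those of Slc25a3, the mitochondrial phosphate carrier (1.12, adjusted p = 6.01e-07), and of Arfrp1 (1.40, adjusted p = 3.16e-06), both found only in retained-intron transcripts. A bin of the joined entry of Cox17 and Popdc2 rose too (1.21, adjusted p = 0.000304), and was lost without GFP B. Each of these risen bins is skipped in an annotated transcript that runs past it, so they need not be gene starts.

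In last blocks, a bin of the importin Ipo8 was at 3.38% and 3.66% against 1.15% and 1.19% (log2 change 1.58, SE 0.16, adjusted p = 3.43e-09). That bin is found only in a retained-intron transcript and is skipped in another annotated transcript that runs past it. The last bin of Rpl5 (chr5:107908056-107909005) was at 3.06% and 2.04% against 0.68% and 0.73% (log2 change 1.82, SE 0.14, adjusted p = 5.56e-11). In the other knockdowns its share was 0.673% to 2.51%, with SRSF1 B inside that range. The bin overlaps Fam69a, which rose as a gene, and reads of the 2 genes cannot be told apart there. The last bin of Trim61 and Trim60 rose (2.23, adjusted p = 1.19e-07) and did not pass without the replicate block (adjusted p = 0.157). The last bin of Wdr77 and Ovgp1 fell (-1.84, adjusted p = 9.91e-11), and all 10 bins that passed in that entry fell, as Ovgp1 did as a gene. Inside genes, bin 12 of Gigyf2 was at 0.328% and 0.427% against 0.9% and 1.06% (log2 change -1.39, SE 0.13, adjusted p = 3.46e-11), and a 2542-base bin of Pabpn1 and Bcl2l2 fell (-1.20, adjusted p = 5.3e-08), as Bcl2l2 did as a gene. SRSF1 B lay within the other knockdowns for that bin (2.68%, range 1.93% to 5.77%) and for the last bin of Wdr77 and Ovgp1 (1.81%, range 1.60% to 6.79%).

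In the SR family 7 of 338 bins passed (2.07%, beside 0.55% of all bins), in 4 genes, Srsf5, Tra2b, Son and Srsf3. Against the 6 other knockdowns bin 17 of Tra2b (-0.14), bin 21 of Son (-0.10) and the last bin of Srsf3 (0.34) did not pass. The bins of Srsf5 and bin 15 of Tra2b (0.75) passed there in the same direction. In Srsf5 bin 23, in a retained intron, was at 1.66% and 1.59% against 1.41% and 0.747% (0.64, adjusted p = 0.0349) and bin 24 at 9.6% and 9.33% against 7.37% and 4.9% (0.68, adjusted p = 0.00831), and both were lost without SRSF1 A, SRSF1 B or GFP B. Bin 17 of Tra2b (chr16:22258986-22259261), found only in noncoding transcripts that include decay targets, was at 2.65% and 6% against 6.48% and 6.9% (log2 change -0.79, SE 0.16, adjusted p = 0.00883), with SRSF1 B near the control, and was lost without SRSF1 A, SRSF1 B or GFP A. Bin 15 of Tra2b (0.88, adjusted p = 0.066), bin 21 of Son (-0.56, adjusted p = 0.0747) and the last bin of Srsf3 (0.46, adjusted p = 0.0953) were lost whichever library was left out. Of the known SRSF1 splicing targets 1 of 440 bins passed (0.227%): bin 15 of Rps6kb1, the S6 kinase (chr11:86513983-86516090), at 2.18% and 1.29% against 0.692% and 0.607% (log2 change 1.40, SE 0.23, adjusted p = 0.000305), lost without SRSF1 A or GFP B.

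In the hnRNP list 27 of 541 bins passed (4.99%), 19 higher and 8 lower, in 9 genes. The bins named here were chosen after their values were seen. Bin 20 of Hnrnpl, 1584 bases found only in retained-intron transcripts (chr7:28815353-28816936), was at 9.07% and 11.5% against 5.05% and 5.73% of the gene (log2 change 1.00, SE 0.10, adjusted p = 5.36e-09). Bin 11 of Hnrnph1, in an annotated intron, was at 1.01% and 1.01% against 0.554% and 0.512% (log2 change 0.88, SE 0.13, adjusted p = 1.52e-05). In Hnrnpu, joined with Gm16586, 7 of 8 bins that passed rose, while the gene fell. Of cleavage and polyadenylation factors 18 of 424 bins passed (4.25%, 15 higher), in 8 genes, and of the export list none of 450. Of the exon junction complex list 10 of 210 passed (4.76%, 7 lower), in 3 genes. The entry of Casc3, a gene of the exon junction complex, is joined with Msl1 and held 7 bins that passed, 1 higher and 6 lower.

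The comparison with the 6 other knockdowns used no control library. SRSF1 differed from their mean in 2542 of 18539 genes (13.7%; 1063 higher, 5.73%, and 1479 lower, 7.98%) and in 2018 of 180828 exon bins (1.12%; 1360 higher, 0.752%, and 658 lower, 0.364%). It shares the SRSF1 libraries with the comparison above. Of the largest changes Riok3 (-1.32, adjusted p = 4.57e-07), Rnf157 (-1.33, adjusted p = 1.21e-05), Ovgp1 (-1.50, adjusted p = 9.73e-05) and D930015E06Rik (1.06, adjusted p = 1.04e-06) passed here, and Hspa5 did not. Rnf157 was at 266 to 946 scaled reads in the 12 other knockdown libraries, so that SRSF1 B, at 284, lay within their range. For Nupr1 (41.3 to 475) and Hspa5 both SRSF1 libraries lay within the range. SRSF1 B alone also did so for 4930461G14Rik, Gm11627, Mipol1, Cyp2b23, Reln, Trp73os, Fam69a, Zfhx3, Gm12751 and Bbs10. The rest of the 24 largest changes, among them D930015E06Rik (1399.9 to 2065) and Col4a5 (551 to 958), were outside the range in both SRSF1 libraries.

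In the cytoplasmic libraries of the same knockdown, which the whole-cell test did not use, 1066 of 17637 genes passed (6.04%; 464 higher, 2.63%, and 602 lower, 3.41%), and 11 without the replicate block. The cytoplasmic libraries carry the same letters, and the study's methods describe fractions separated from the cells. Both fractions may thus stem from the same cultures, and the cytoplasm is not to be read as an independent replicate. The 2 tables were scaled separately, so changes are set side by side, cytoplasm first. Srsf1 was at -1.12 and -0.93, Rnf157 at -1.71 and -1.91, Riok3 at -1.80 and -1.51, Col4a5 at -1.69 and -1.37, and Zfhx3 at 1.34 and 1.30. The 12 largest falls all passed in the cytoplasm, and of the 12 rises Efcab7 (0.35, adjusted p = 0.636) and Bbs10 (0.44, adjusted p = 0.355) did not. Ovgp1 rests on few reads there, at 1.91 and 4.39 against 16.1 and 20.6 scaled reads. Hnrnph1 was at -1.56 and -0.78, and Hnrnpu at -1.07 and -0.62. Hnrnpl did not pass in the cytoplasm (0.30, adjusted p = 0.152). The differences between fractions were not tested.

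Exon shares in the cytoplasm were 4.48% and 6.78% against 17.7% and 16.3% for the exon of Cthrc1, 2.31% and 5.14% against 15.1% and 16.7% for the last exon of Thada and 0.689% and 0.575% against 0.169% and 0.114% for that of Bptf, with no overlap between groups. The exon of Rif1 was at 0.775% and 2.88% against 3.57% and 3.42%, with SRSF1 B close to the control. For the exon of Ktn1, at 2.08% and 2.76% against 2.23% and 1.28%, the groups overlapped. The retained bin of Slc30a9 was at 1.74% and 1.26% against 0.811% and 1.02% in the cytoplasm.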

How the data were processed

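The authors prepared poly(A)+ RNA libraries with a TruSeq protocol and mapped reads to mm10 (mm9 is listed too). The submitters' processing notes name Cufflinks 2.1.1, Bowtie2 2.1.0, TopHat2 in versions 2.0.10 and 2.0.9, CASAVA 1.8.2 and cutadapt. The deposited gene table holds a signal per gene and library, estimated reads that the authors scaled to a common depth over the table, and low values were whole reads for 98.4% to 98.6% of entries (tolerance 0.1 reads), so that depth could be recovered. The exon-bin values are a deposited signal too, reads per bin that the authors divided by 1 factor per library, and the deposited FPKM are the authors' values per group. Columns holding the authors' own ratios, fold changes and p-values, and isoform estimates, were not used.

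Of 38201 genes, 12 were left out as failed estimates, with a 0 where the bins held at least 100 reads or another library reached 1000. Genes were tested with limma 3.58.1 (variance trend) on log2(value + 1) after TMM scaling (edgeR 4.0.16) and filterByExpr, over all 16 whole-cell libraries, with Benjamini-Hochberg adjustment and a threshold of 0.05. Fold changes are on the log2(value + 1) scale and understate those of low genes. Bins with a mean of at least 5 (177955 of 354841) were tested with diffSplice and vooma weights over the 4 libraries, at 0.1. The scripts were tested on simulated data. The replicate letter was a block: the A minus B differences of the groups correlated (Spearman 0.238 to 0.814 over 28 pairs of groups, 0.429 for SRSF1 with GFP), and the letter comes from the labels.

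Named were the SR family, the 12 largest rises and falls (mean of at least 200, no overlap), up to 4 genes of each other list of the 22 by smallest adjusted p, or the defining members where none passed, up to 10 internal bins and 3 of each other kind per direction, and bins of the SR family and of known SRSF1 targets. Some bins that this rule names are not reported here. Members and lists were chosen with earlier results of these data known. Transcript types and sequences are from GENCODE M1, matched by transcript identifier and exon lengths, at most 300 bases each. Alternatives were no block, another pseudocount, no filter, the authors' scaling alone, edgeR and DESeq2 1.42.0 on recovered reads, the 4 libraries alone, and leaving out each library.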

Additional observations from a re-analysis of the deposited data

How the results depend on the processing

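Without the replicate block the genes that passed against GFP numbered 149 in place of 2027, those against the 6 other knockdowns 600 in place of 2542, and those in the cytoplasm 11 in place of 1066. The bins numbered 573 in place of 979 against GFP and 1233 in place of 2018 against the other knockdowns. Leaving out 1 library gave 313 to 1597 genes against GFP (lowest without SRSF1 A), 287 to 1411 against the other knockdowns (287 without SRSF1 A, 1411 without SRSF1 B), 104 to 453 in the cytoplasm (104 without GFP A, 141 without SRSF1 A, 267 without GFP B, 453 without SRSF1 B), 303 to 816 bins against GFP, and 451 to 1262 bins against the other knockdowns (451 without SRSF1 A, 1262 without SRSF1 B). The cause was not tested, beyond the smaller number of samples. Gene counts against GFP were within 1.5 times of 2027 with a pseudocount of 10 (2025), no filter (1415), the authors' scaling alone (2030), edgeR (1934), DESeq2 (1918) and the 4 libraries alone (2959). Bin counts were within it with a pseudocount of 5 (1073), a minimum level of 20 (823), edgeR (819) and all 16 libraries (1055). The Srsf1 level kept its direction and passed throughout, between -1.11 and -0.77 with 1 library left out, and without the block at an adjusted p of 0.0233. Of the named genes, those that changed sign with 1 library left out had not passed: Srsf5 (-0.00599 to 0.249), Srsf9 (-0.00726 to 0.17), Srsf3 (-0.0648 to 0.216), Scaf11 (-0.00527 to 0.109), Smg1 (-0.0793 to 0.332), Srrm1 (-0.123 to 0.0112), Srsf2 (-0.342 to 0.0191) and Upf1 (-0.0767 to 0.00547). With 2 libraries a group, genes at low levels such as Fas and Neurog2 rest on few reads, and a change that missed the threshold is not shown to be absent.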
